A study of Mus musculus with 24 samples.

Results

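Bone marrow derived macrophages of floxed control mice were compared in 2 activation states, M1 against M2. The 8 arrays taken were all those labelled GLUT1 WT M1 (4) and GLUT1 WT M2 (4), of the 24 one-colour arrays of the study. Macrophages had been grown from marrow for 6 days in 20 ng/ml M-CSF, the growth factor that drives marrow precursors into the macrophage lineage. For the last 24 h they received 5 ng/ml LPS with 10 ng/ml IFNγ (M1) or 10 ng/ml IL-4 (M2). Both states shared the genotype, given as WT or Slc2a1 fl/fl, in which the gene of the glucose transporter GLUT1 is flanked by loxP sites and no Cre is named. The 4 untreated WT arrays (M0) are given as the baseline. The 8 arrays of M1 and M2 cells from KO mice (LysMCre crossed to Slc2a1 fl/fl, with deletion driven from the lysozyme gene Lyz2 in myeloid cells) enter a single comparison at the end. The submitters call the 4 replicates of a group biological, and the labels do not say whether a replicate was 1 animal or a pool.

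LPS is sensed by Toll-like receptor 4 and sets off NF-kappaB and a type I interferon loop, whereas IFNγ acts through a receptor of its own. Together they give a macrophage that makes inflammatory cytokines, presents antigen and produces nitric oxide from arginine. IL-4 acts through its own receptor and STAT6 and gives a macrophage known for arginase, lectin receptors, chitinase-like proteins and tissue repair. The enzymes NOS2 and arginase 1 use the same substrate, and their genes are the customary markers of the mouse M1 and M2 states.

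Values are log2 intensities relative to the 75th percentile of the gene probes of each array, so that a level of 0 equals that percentile. They compare 1 gene between arrays and not 1 gene with another. A difference is M1 minus M2 in log2 units ± the standard error of the limma fit, and a gene was called when its Benjamini-Hochberg adjusted p was under 0.05. The 75th percentile was 2017 ± 253 intensity units in M1 and 2407 ± 402 in M2 (SD, n = 4), and 54.0% to 63.1% of gene probes on each array passed the scanner's background test. The number of arrays, 4 in each state, limits the precision. Spots marked as outliers were left out, as printed where it applies, and a value was also left out on at least 1 of the 8 arrays for Casp4, Ccnd2, Flt1, Fn1, Ifit1, Il18bp, Il4i1, Irf1, Itgax, Nfkb1, Pparg, Prps1, Rnase2a, Srm and Stab2. Where the probe was not well above background on every array of the lower state, the difference is given as at least N-fold, which sets the dim arrays to the lowest signal found well above background on them.

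The first principal component of the 8 arrays (68.7% of the variance) separated M1 from M2. The second (12.3%) separated M1 replicate 3 and M2 replicate 4 from the other 6 arrays. These 2 belong to a 4th set of arrays, which filled the places left over on the 3 slides once each slide held 1 array of every group. On both, the Y-linked Ddx3y was near the bottom of the scale, at -7.36 in M1 and -7.54 in M2, against -0.50 to 0.25 on the other 6, and Xist, made from the inactive X chromosome, was at -0.15 and -0.39, against -4.79 or less. Each set held 1 M1 and 1 M2 array, and the counts over all genes are given with and without the 4th set. For gene lists, counts without it are given where they moved by over 1.5 times.

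Of 25762 genes tested, 7194 were higher in M1 (27.9%) and 5132 higher in M2 (19.9%), together 47.8%, by the limma test with Benjamini-Hochberg adjustment. The median difference was 0.98 among the first and -1.13 among the second, and 0.16 over all genes. At least 4-fold differences were seen for 1277 genes higher in M1 and 1140 higher in M2, and at least 64-fold for 101 and 99. In 10654 genes (41.4%) the 4 arrays of one state all lay on 1 side of the 4 of the other. Without the 4th set, 8099 and 5581 genes were called. Within the sets, the median over the genes called higher in M1 was 0.98, 1.18, 0.94 and 0.75 in sets 1 to 4, and over those called higher in M2 -1.26, -1.03, -1.32 and -0.84. Among called genes with a value in each of the 4 sets, 95.1% kept 1 sign in all of them. With slide as a block, 7543 and 5144 genes were called, and the medians within slides 1, 2 and 3 were 0.98, 1.1 and 0.94 for the first group and -1.26, -0.91 and -1.20 for the second. In whole cultures, a lower level in fewer cells and a lower level in every cell cannot be told apart.

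**Figure D1:**
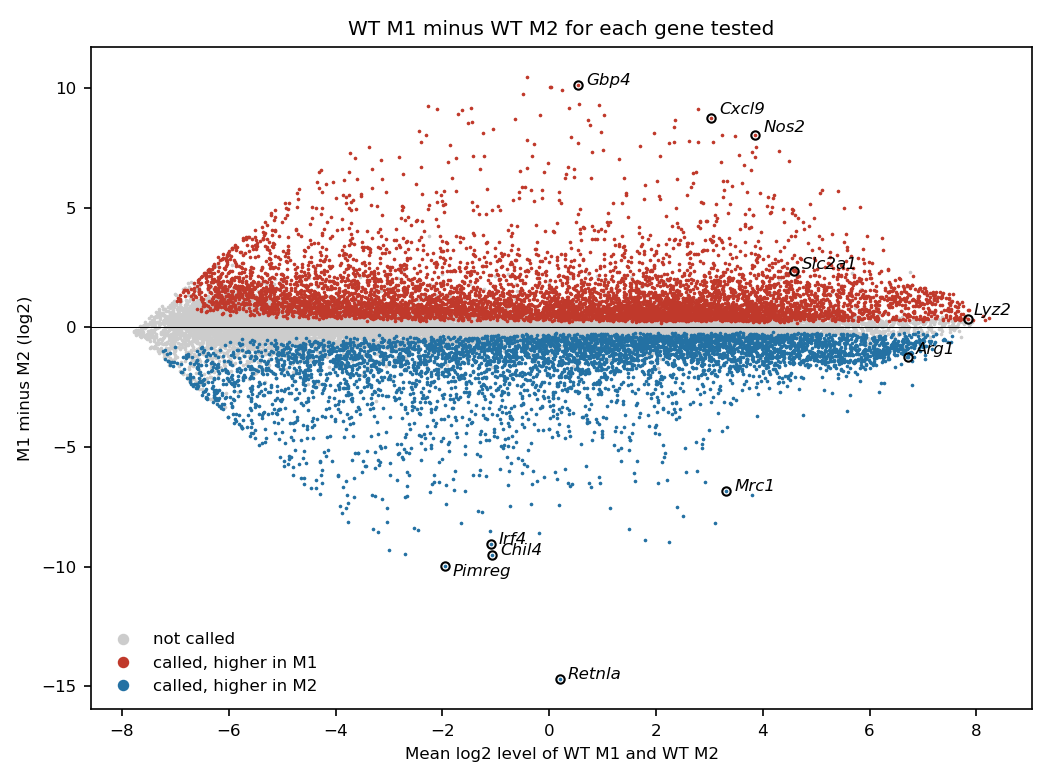
Each point is 1 of the 25762 genes tested, with the mean log2 level of WT M1 and WT M2 on the x axis and M1 minus M2 (log2) on the y axis. Red points were called higher in M1 (7194), blue points higher in M2 (5132) and grey points were not called. Retnla lies lowest, at -14.70, with none of its M1 arrays above background, while Arg1 lies at -1.26 at high levels in both states.

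Nos2, the inducible nitric oxide synthase, was high in every M1 culture. Its levels were 8.11, 7.79, 7.61 and 8.03 in M1 replicates 1 to 4 and -0.96, -0.13, -0.73 and 1.14 in M2, a difference of 8.06 ± 0.45 (266-fold, adjusted p = 1.8e-11), with M0 at -2.29 ± 0.29 (SD, n = 4). The groups did not overlap, and the M2 array of the 4th set was the highest of its group. Arg1, arginase 1, which turns arginine into ornithine, stood high in both states. It reached 6.22, 5.89, 6.26 and 6.01 in M1 and 7.54, 7.07, 7.62 and 7.18 in M2, against 0.96, 0.68, 0.76 and 1.06 in M0. The M2 arrays all lay above the M1 arrays, yet by only 2.39-fold (-1.26 ± 0.37, adjusted p = 0.0080). Measured by its probe at chr10:24636194-24636253 (mm9), Arg1 had all of its M1 and M2 arrays more than 4 log2 units above each M0 array.

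Other genes of arginine metabolism followed both directions. Of 17 measured (17 listed), 6 were higher in M1 and 4 in M2, with a median of -0.07. These shares lie near those of all genes. Without the 4th set the counts were 7 and 7. Ass1, the enzyme that rebuilds arginine from citrulline, differed by 4.09 ± 0.30 (adjusted p = 8.3e-10). Gch1, which starts the synthesis of the NOS2 cofactor tetrahydrobiopterin, differed by 2.2 ± 0.16. The arginine transporter Slc7a2 was 3.32 ± 0.81 in M1 and 2.07 ± 0.51 in M2 (SD, n = 4) but -3.32 ± 0.74 in M0, so that, like Arg1, it was above the baseline in both states. On the side of ornithine use, the ornithine aminotransferase Oat (-1.75 ± 0.14) and the spermidine synthase Srm (-1.69 ± 0.42) were higher in M2. Odc1, the ornithine decarboxylase, was not called (0.65 ± 0.27, adjusted p = 0.053).

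**Figure D2:**
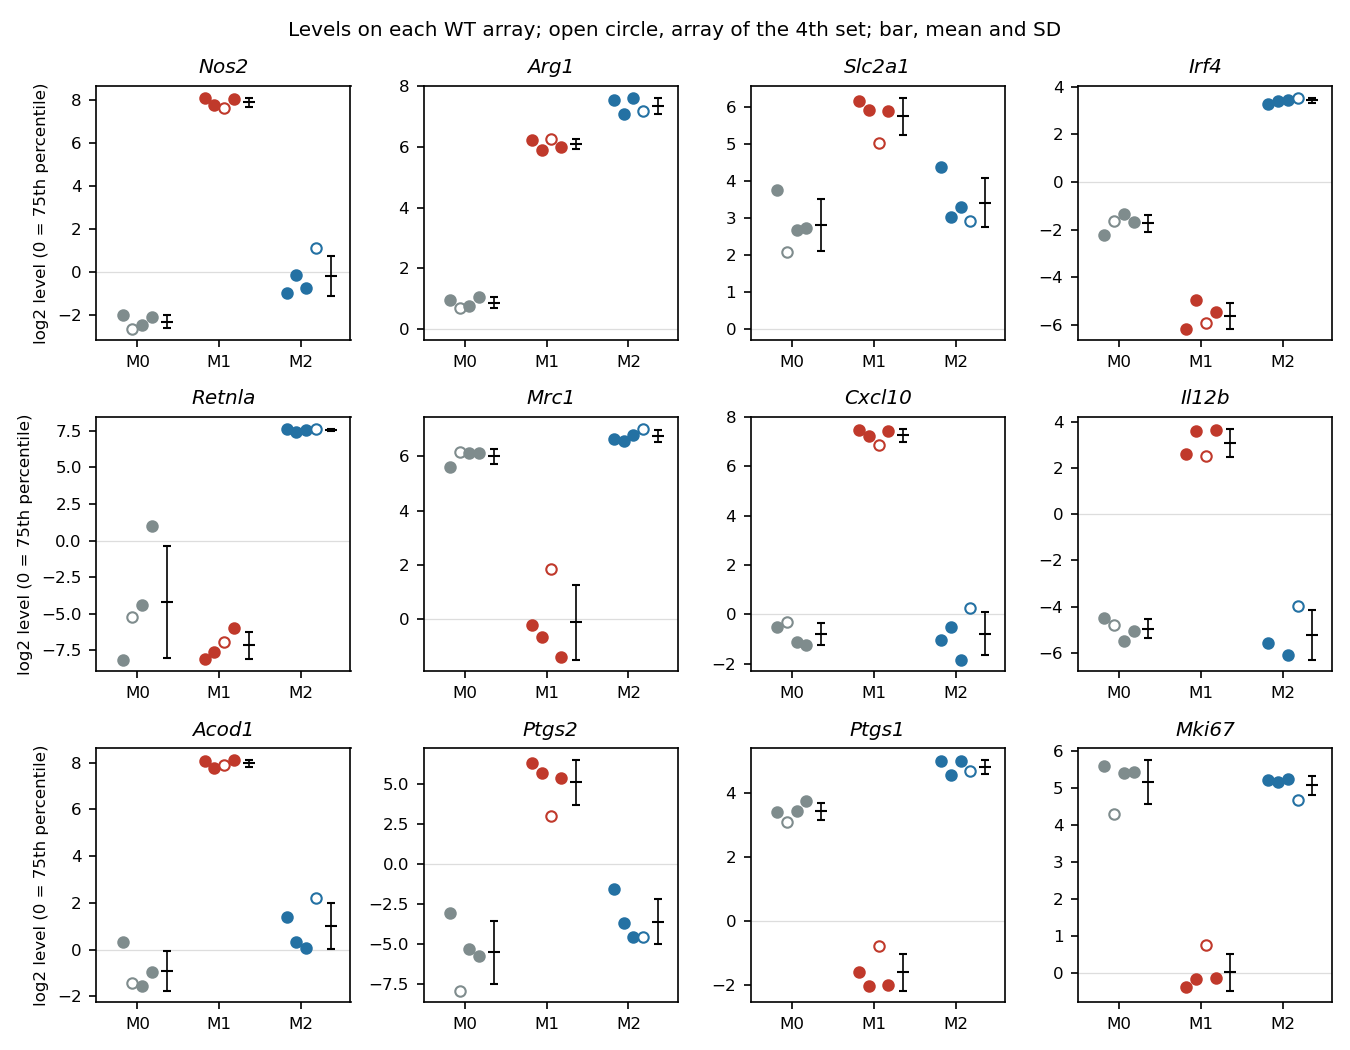
Log2 levels (y axis, 0 is the 75th percentile of the array) of 12 genes on each WT array in M0, M1 and M2 (x axis). Circles are arrays, open circles the arrays of the 4th set, and bars the mean and SD. Arg1 is near 6.10 in M1 and 7.35 in M2 against 0.87 in M0, whereas Nos2 is highest in M1, at 7.88, and Retnla in M2, at 7.55.

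Interferon-induced genes were higher in M1 throughout both lists of them. All 17 of 17 measured interferon-inducible GTPases, which attack the vacuoles of intracellular microbes, were higher in M1 (median 5.95), and so were 28 of 28 antiviral genes (median 5.00). Gbp4 gave 5.97, 5.22 and 5.58 (no value for replicate 2) in M1 and -6.19, -5.51 and -1.87 (no value for replicate 2) in M2, where 3 of 4 arrays were above background, and was at least 929-fold higher in M1. Iigp1 was 7.51, 7.19, 7.40 and 7.29 in M1 and -3.43, -1.75, -2.91 and 0.94 in M2 (9.14 ± 1.04). The groups did not overlap, but the spread in M2 was wide. Tgtp2 (7.36 ± 0.76), Igtp (5.17 ± 0.23) and Irgm2 (4.79 ± 0.30) also separated fully. Among the antiviral genes, Ifit1, which binds foreign RNA, differed by 7.79 ± 0.74, Ifit2 by 7.74 ± 0.63, Ifit3 by 7.73 ± 0.85, the exonuclease gene Isg20 by 7.70 ± 0.51, and Rsad2, which makes a chain-terminating nucleotide, by 7.54 ± 0.63. The ubiquitin-like Isg15 stood at 8.08, 7.80, 7.89 and 8.15 in M1 and 2.49, 1.80, 1.55 and 3.13 in M2. Its M2 replicate 4, of the 4th set, lay above the other 3 M2 arrays, as it did for Iigp1. The smallest difference in the antiviral list was that of Eif2ak2, the kinase that shuts off translation, at 2.27 ± 0.20. Within the 4 sets the list medians ran from 4.55 to 6.60 for the GTPases and from 3.68 to 5.77 for the antiviral genes, lowest in the 4th set in both. Several of these families (Gbp, Ifit, Oas) hold near-identical copies, so a probe may read more than 1 of them.

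The promoters of these genes were searched, in RefSeq sequence of GRCm38.p6 from 250 bases before to 50 after each start, on both strands, for an interferon response motif (GAAA, any 2 bases, GAAA) and a gamma-activated motif (TTC, any 3 bases, GAA). The first was found in 58.8% of the 34 promoters of both lists (30 of 45 genes matched), against 3.19% of the 17896 promoters of all genes tested and 3.44% of the 32851 in the table. The second was found in 35.3%, 7.42% and 8.30%, and in 20.8% of the 24 promoters of a list of IL-4 targets. Among all genes at least 2-fold higher in M1, the shares were 6.13% and 8.22%, and among those at least 2-fold higher in M2 2.5% and 6.58%. The 2 motifs share the letters GAA and may overlap. The stretches printed next before the start show how they lie, with both motifs in capitals.
Igtp: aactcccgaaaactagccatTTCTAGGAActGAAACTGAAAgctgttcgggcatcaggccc
Irgm2: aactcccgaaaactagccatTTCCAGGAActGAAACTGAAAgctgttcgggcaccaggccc
Tgtp2: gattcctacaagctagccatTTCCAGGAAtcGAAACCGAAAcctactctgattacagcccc
Isg15: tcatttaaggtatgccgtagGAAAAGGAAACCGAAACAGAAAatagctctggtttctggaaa
Ifit1: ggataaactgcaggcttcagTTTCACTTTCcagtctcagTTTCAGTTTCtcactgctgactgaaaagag
Irf1: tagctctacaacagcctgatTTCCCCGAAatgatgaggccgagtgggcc
They are at chr11:58199491-58199551 (plus strand), chr11:58214882-58214942 (plus strand), chr11:49064253-49064313 (minus strand), chr4:156200855-156200916 (minus strand), chr19:34640765-34640833 (plus strand) and chr11:53769904-53769952 (plus strand). The GTPase genes Igtp, Irgm2 and Tgtp2 carry the gamma-activated motif followed, after the same gap of 2 bases, by the interferon response motif. Isg15 holds 3 overlapping interferon response motifs, Ifit1 holds 2 on the other strand, and Irf1, itself a transcription factor of this response, holds a gamma-activated motif alone in the stretch shown. A match is a matter of letters and not a measured site.

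The signalling genes of the interferon pathway leaned the same way. Of 18 genes for interferon regulatory factors and their partners, 15 were higher in M1 and 2 in M2, with a median of 1.56. Irf7, which carries the type I loop, differed by 5.04 ± 0.91, Irf1 by 2.38 ± 0.25 and Irf8 by 1.37 ± 0.19. The feedback inhibitor Socs3 was 5.92 ± 0.91 in M1 against -0.54 ± 0.31 in M2 (SD, n = 4). Socs1, a feedback inhibitor of cytokine receptors, was also higher in M1 (2.19 ± 0.26), with M0 at -1.71 ± 0.17, below both states. The IFNγ receptor chains parted, Ifngr1 being higher in M2 (-1.32 ± 0.21) and Ifngr2 higher in M1 (0.62 ± 0.10). Irf4, a factor known to act with the IL-4 response, went the other way. It measured -6.16, -4.94, -5.90 and -5.46 in M1 and 3.29, 3.40, 3.45 and 3.54 in M2, at least 440.5-fold, with 2 M1 arrays above background (adjusted p = 7.6e-16, probe at chr13:30858532-30858591, mm9). M0 lay between, at -1.73 ± 0.36.

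Inflammatory cytokines were higher in M1 without exception among those measured, 21 of 21 (24 listed), with a median of 3.57. Il12b, the shared chain of IL-12 and IL-23, gave 2.62, 3.58, 2.51 and 3.66 in M1. It gave -5.56, -6.08 and -3.99 (no value for replicate 2) in M2, and 2 M2 arrays were above background, so that it was at least 279.6-fold higher in M1. Il1b was 6.01, 5.80, 2.1 and 6.29 in M1, where replicate 3, of the 4th set, was lowest, and -2.36, -4.14 and -2.87 (no value for replicate 2) in M2 (8.18 ± 1.09). Il6 (at least 65.0-fold, with 3 M2 arrays above background), Il1a (at least 95.6-fold, with 2 M2 arrays above background) and Tnf (5.50 ± 0.53) separated without overlap. Il12a, the chain that makes IL-12 with Il12b, differed by at least 3.19-fold, with 2 M2 arrays above background. Among members that restrain inflammation, Il10 differed by 3.96 ± 0.49 and the IL-1 receptor antagonist Il1rn by 5.53 ± 0.44. Within sets the list median was 3.35, 3.92, 3.93 and 2.25 in sets 1 to 4.

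CXC chemokines were mostly higher in M1. Of 12 CXC chemokines measured, 8 were higher in M1 and 1 in M2 (median 3.03, or 2.5 with 5 genes at their lower bound), and without the 4th set 0 were higher in M2. Cxcl9 was 7.44, 7.21, 7.38 and 7.58 in M1 and -3.28, -1.05, -2.61 and 1.62 in M2. Cxcl10, also a ligand of CXCR3, was 7.49, 7.24, 6.87 and 7.44 and -1.03, -0.52, -1.84 and 0.25 (8.04 ± 0.53). In both, the 4 M1 arrays lay close together and the M2 array of the 4th set was the highest of its group. Of 13 CC chemokines, 4 were higher in M1 and 4 in M2, not far from the shares over all genes (27.9% and 19.9%), and 6 and 6 with the set as a block. They had a median of -0.85 that ranged from -1.51 to 0.62 over the sets. Ccl12 (4.71 ± 0.33) and Ccl5 (3.81 ± 1.07) were on the M1 side. Ccl24, an eosinophil attractant (-5.60 ± 0.43), Ccl6 (-2.31 ± 0.33) and Ccl9 (-1.4 ± 0.15) were on the M2 side. Ccl17, a ligand of CCR4, was above background on 1 M1 array and all 4 M2 arrays, and was at least 30.8-fold higher in M2. The monocyte attractants Ccl2 (2.3 ± 1.17, adjusted p = 0.11) and Ccl7 (2.29 ± 1.18, adjusted p = 0.12) were not called, and their M2 levels spread widely, from 3.41 to 7.08 for Ccl2. With the set as a block both were called (adjusted p = 0.011 and 0.0056).

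Receptors for chemoattractants were mostly higher in M1, 9 of 14 against 4 higher in M2 (27.9% and 19.9% over all genes). Fpr1, a receptor for bacterial formyl peptides, was 5.95, 5.36, 4.78 and 5.83 in M1 and -2.67, -1.67, -2.06 and -1.93 in M2. Fpr2 (6.80 ± 0.45) and Ccr7, the lymph node homing receptor (at least 121-fold, with 2 M2 arrays above background), were higher in M1 as well. Ccr2 (-1.75 ± 0.42), Cxcr4 (-1.83 ± 0.25) and Cxcr2 (at least 5.59-fold, with 3 M1 arrays above background) were higher in M2.

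Most sensors of microbes and genes of the NF-kappaB system stood higher in M1 than in M2. Of 19 Toll-like receptors and adaptors, 13 were higher in M1 and 2 in M2 (median 1.1). The median level of the list was 2.72 in M1, 2.5 in M0 and 1.62 in M2, so that M0 lay nearer to M1. Tlr3, the sensor of double-stranded RNA, differed by 2.84 ± 0.27 and Irak3, an inhibitor of the pathway, by 2.65 ± 0.17, whereas Irak1 (-0.55 ± 0.12) and Irak4 (-0.70 ± 0.15), kinases of the same pathway, were higher in M2. Irak4 was not called with the mean of its probes (-0.43, adjusted p = 0.28). In the NF-kappaB list 17 of 20 were higher in M1 and 3 in M2 (median 1.81). The adaptor Traf1 (5.54 ± 0.36), the nuclear regulator Nfkbiz (3.92 ± 0.30), the inhibitor Nfkbia (2.54 ± 0.16) and the adhesion receptor Icam1 (3.62 ± 0.26) were among the former. The subunits Rel (-0.64 ± 0.15) and, by a small margin, Nfkb1 (-0.36 ± 0.12) were higher in M2. Nfkb1 was not called without M1 replicate 3 (-0.27), without M2 replicate 1 (-0.26) or without the 4th set (-0.29), and the mean of its probes gave 0.01. The subunits Relb (1.47 ± 0.19), Nfkb2 (1.53 ± 0.19) and Rela (1.08 ± 0.10) were higher in M1. A kappaB motif of the strict consensus type was found in 8 of 2690 promoters of genes at least 2-fold higher in M1 (0.297%). It was found in 34 of 17896 promoters of all genes tested (0.190%) and 0 of 34 of the antiviral and GTPase lists. These shares rest on few promoters and were not tested.

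Inflammasome genes were higher in M1 in 10 of 14 cases and in M2 in 2 (1 without the 4th set). Il18bp, the decoy that binds IL-18, led with 5.90 ± 0.79, followed by Casp4 (3.72 ± 0.53), the sensor of cytosolic LPS, and Mefv (3.45 ± 0.62). Casp1 differed by 2.24 ± 0.11, while the adaptor Pycard was higher in M2 at its brightest probe (-1.08 ± 0.26) and not called with the mean of its probes (-0.33). The 2 cyclooxygenase genes went opposite ways. Ptgs2, the inducible form, was 6.25, 5.64, 3.00 and 5.37 in M1 and -1.57, -3.70, -4.57 and -4.58 in M2 (8.67 ± 0.97). Ptgs1, the constitutive form, was -1.60, -2.04, -0.80 and -2.01 in M1 and 5.00, 4.56, 5.00 and 4.68 in M2 (-6.42 ± 0.28). Neither pair of groups overlapped, and M0 lay on the M2 side for both, at -5.52 ± 1.97 and 3.42 ± 0.27 (SD, n = 4). In the same list of 16 genes, 5 in all were higher in M1, among them the phospholipase Pla2g4a (2.68 ± 0.45), and 6 in M2, among them the 5-lipoxygenase gene Alox5 (-2.58 ± 0.43) and the leukotriene synthase Ltc4s (-1.79 ± 0.31). Over all genes, 27.9% were higher in M1 and 19.9% in M2, so the M1 share of this list lay near that of all genes.

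Genes for loading MHC class I were higher in M1 in 14 of 17 cases (median 1.22). The peptide transporter Tap1 (3.81 ± 0.17), the editor Tapbpl (3.66 ± 0.17) and the immunoproteasome subunit Psmb9 (2.67 ± 0.12) led, and the chaperones Calr (-0.56 ± 0.20) and Canx (-0.31 ± 0.11) were higher in M2 by small margins. Calr was not called without M1 replicates 2, 3 or 4 or M2 replicates 1 or 3, each left out alone (down to -0.48). Canx was not called without M1 replicates 1, 2 or 4 or M2 replicates 1 or 3 (down to -0.25). Among MHC class II genes, 5 of 12 were higher in M1 (2 after quantile normalization) and 1 in M2, against 27.9% and 19.9% of all genes. H2-Oa, part of the modulator DO, was higher in M1 (at least 45.5-fold, with 3 M2 arrays above background), as was H2-Ob (2.3 ± 0.39), while the class II activator Ciita was not called (-0.29 ± 0.36, adjusted p = 0.55) and stood above M0 (0.60 ± 0.67) in both states, at 2.86 ± 0.20 in M1 and 3.14 ± 0.48 in M2 (SD, n = 4).

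Ligands that steer T cells were found on both sides. The co-stimulator Cd86 was 5.30, 5.44 and 3.5 (no value for replicate 4) in M1 and -1.93, -0.93, -1.18 and 1.59 in M2 (5.36 ± 0.71), and Cd40 was also higher in M1 (3.82 ± 0.24). Of the PD-1 ligands, Cd274 (PD-L1) was higher in M1 (3.90 ± 0.23) and Pdcd1lg2 (PD-L2) in M2, with -0.91, -1.56, -0.77 and -1.79 in M1, 1.4, 2.78 and 3.87 (no value for replicate 2) in M2 and -4.44 on average in M0. Of the tryptophan and amino acid oxidising enzymes that curb T cells, Ido1 was above background on no M2 array and was at least 17.7-fold higher in M1, while Il4i1 was higher in M2 (-4.33 ± 0.38). Over the 14 genes of this list 9 were higher in M1 and 5 in M2, against 27.9% and 19.9% of all genes.

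Most genes known as IL-4 targets were higher in M2. Of 32 measured (34 listed), 23 were higher in M2 and 3 in M1, with a median of -4.39 (-4.10 with 8 genes at their lower bound) and medians of -4.50 to -3.98 within the sets. Retnla, which encodes the secreted RELMα, was 7.64, 7.42, 7.54 and 7.59 in M2 and was above background on none of the M1 arrays, at -8.11, -7.62, -6.93 and -5.94, so that it was at least 8986-fold higher in M2 (adjusted p = 3.0e-08, probe at chr16:48844447-48844506, mm9). Its 4 M2 arrays lay close to each other, while in M0 it ranged from -8.14 to 0.97. The chitinase-like Chil3 (Ym1) was 0.23, 0.75, -1.46 and 1.71 in M1 and 7.31, 7.10, 7.47 and 7.33 in M2 (-6.99 ± 0.78), with M0 at 4.18 ± 1.07 (SD, n = 4). Its close copy Chil4 was at least 479-fold higher in M2, and probes may not part the 2. Mrc1, the mannose receptor, was -0.20, -0.66, 1.84 and -1.39 in M1 and 6.61, 6.54, 6.76 and 7.01 in M2. Its M0 arrays, at 6.00 ± 0.27, lay near the M2 arrays, and M1 replicate 3, of the 4th set, was the highest M1 array. Fn1, fibronectin (-7.89 ± 0.66), the lectin Clec10a (-5.64 ± 0.59), Flt1, a VEGF receptor (-5.59 ± 0.43), and the Fc receptor-like Fcrls (-6.09 ± 0.29) were also higher in M2. Cdh1, E-cadherin, was above background on no M1 array and was at least 33.6-fold higher.

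Against the name of the list, 3 members were higher in M1. These were the transglutaminase Tgm2, 7.75, 7.75, 6.81 and 7.72 in M1 and 4.00, 4.19, 4.29 and 4.45 in M2, the cholesterol 25-hydroxylase Ch25h (3.63 ± 0.95), and the arginine transporter Slc7a2 described above. M0 lay below both states for each, at 3.42, -3.62 and -3.32 on average. Others were not called. The lectin Mgl2 stood at 6.48 ± 0.49 in M1 and 6.81 ± 0.21 in M2 (SD, n = 4), against 4.50 ± 0.26 in M0. Ccl22 was above background on 2 M1 and 4 M2 arrays, with a difference of -1.16 ± 0.74 (adjusted p = 0.22).

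Eosinophil-associated ribonucleases were among the genes highest in M2. Ear2 was -2.21, -1.37, -0.82 and -1.03 in M1 and 4.20, 6.58, 6.67 and 7.20 in M2 (-7.52 ± 0.94), with replicate 1 the lowest M2 array. Ear10 (-8.43 ± 0.85), Ear1 (-7.55 ± 1.0) and Rnase2a (-8.97 ± 0.93) were higher in M2 too, each with replicate 1 the lowest M2 array. These are near-identical copies, so their probes are not independent. Il31ra, a receptor chain for IL-31, gave -6.64, -6.70, -7.46 and -6.11 in M1, 1.70, 1.62, 1.75 and 1.63 in M2 and -6.42 on average in M0, or at least 153-fold, with no M1 arrays above background at this probe and all 4 at another. Tmem26, a membrane protein, gave -5.70, -5.28, -4.99 and -5.50 in M1 and 3.00, 2.85, 3.59 and 3.17 in M2. The sulfotransferases Chst7 and Sult1a1 differed by -7.45 ± 0.32 and -6.53 ± 0.36. None of these groups overlapped.

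A STAT6 type motif (TTC, any 4 bases, GAA) was found in 25% of the 24 promoters of the IL-4 target list (22 of 32 genes matched), in 6.38% of those of genes at least 2-fold higher in M2, in 5.87% of those at least 2-fold higher in M1, in 14.7% of the 34 promoters of the antiviral and GTPase lists, in 6.02% of all genes tested and in 6.95% of the table. Stretches before the start of 5 genes higher in M2 are shown, with the motif in capitals.
Retnla: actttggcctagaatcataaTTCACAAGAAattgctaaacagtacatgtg
Ccl17: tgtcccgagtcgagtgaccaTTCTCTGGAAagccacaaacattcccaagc
Cd209e: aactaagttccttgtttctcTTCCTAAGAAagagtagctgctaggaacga
Pdcd1lg2: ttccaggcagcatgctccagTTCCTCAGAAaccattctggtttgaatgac
Itgax: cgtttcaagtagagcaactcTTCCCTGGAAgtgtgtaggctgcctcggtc
They are at chr16:48842444-48842493 (plus strand), chr8:94810279-94810328 (plus strand), chr8:3854336-3854385 (minus strand), chr19:29410817-29410866 (plus strand) and chr7:128129403-128129452 (plus strand), on GRCm38.p6. Cd209e, a DC-SIGN-like lectin, was higher in M2 (at least 3.18-fold, with no M1 arrays above background), and Itgax, the integrin CD11c, differed by -2.83 ± 0.24.

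The IL-4 receptor and its signalling genes did not move as 1 group. Higher in M1 were the receptor chains Il13ra1 by 4.93 ± 0.41, Il4ra by 2.76 ± 0.24, the common gamma chain Il2rg by 2.49 ± 0.21, the kinase Tyk2 by 1.42 ± 0.13 and the transcription factor Stat6 by 0.67 ± 0.10. Other genes of the list were higher in M2. The transcription factor Egr2 was 0.61, -0.31, -0.19 and -1.03 in M1 and 6.02, 5.55, 5.88 and 5.68 in M2, Myc -4.40, -4.16, -2.25 and -4.71 and 2.55, 2.25, 2.15 and 1.17. Pparg, the nuclear receptor of lipid handling, differed by -4.68 ± 0.42, and the cytokine-signalling inhibitors Socs2 and Cish by -6.02 ± 0.28 and -3.40 ± 0.41. In all, 9 of 18 were higher in M2 and 7 in M1, against 19.9% and 27.9% of all genes.

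Markers that define the lineage were present in both states. Lyz2 stood at 8.09, 7.93, 8.02 and 7.98 in M1 and 7.78, 7.49, 7.75 and 7.67 in M2 (0.33 ± 0.37, adjusted p = 0.50; -0.08 after quantile normalization). The M-CSF receptor Csf1r differed by 0.16 ± 0.12 (adjusted p = 0.28; -0.19 after quantile normalization), and Adgre1 (F4/80) by 0.58 ± 0.11 (adjusted p = 0.00011). Fcgr1, the high affinity Fc receptor often used as a macrophage marker, was 7.04, 6.90, 6.74 and 7.04 in M1 and 1.80, 1.72, 1.77 and 3.36 in M2 (4.77 ± 0.41). Cd14, the lipopolysaccharide co-receptor, differed by 3.15 ± 0.34. Of 20 lineage genes, 9 were higher in M1 and 5 in M2, against 27.9% and 19.9% of all genes, and all 20 were above background on all 8 arrays.

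Uptake receptors were found on both sides, 7 higher in M1 and 9 in M2 of 23, against 27.9% and 19.9% of all genes. Marco, a receptor for particles and bacteria, was 7.59, 6.50, 7.5 and 6.71 in M1 and 1.11, -0.78, -0.85 and 2.5 in M2. The lectin Clec4n differed by 5.74 ± 0.49 and the scavenger receptor Msr1 by 2.3 ± 0.31. Higher in M2 were Cd163, the haemoglobin scavenger (above background on no M1 array, at least 16.9-fold), the hyaluronan receptor Stab2 (-6.10 ± 0.96), the bridging protein Gas6 (-2.61 ± 0.28) and Trem2 (-1.67 ± 0.11). Of the Fc receptors, the activating Fcgr4 was higher in M1 (2.91 ± 0.49) and the inhibitory Fcgr2b (-1.71 ± 0.37) and the neonatal receptor Fcgrt (-2.72 ± 0.44) in M2. Complement genes were higher in M1 in 7 of 12 cases, led by Cfb, factor B, with 7.68, 7.35, 7.37 and 7.54 in M1 and -1.0, -1.0, -1.88 and 1.83 in M2. C3 differed by 3.72 ± 0.52.

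Of 20 proteases and inhibitors, 7 were higher in M1 and 3 in M2, shares near those of all genes. The membrane-bound protease Mmp14 (5.86 ± 0.59) was higher in M1 and Timp2 (-3.5 ± 0.30) in M2. Among 16 iron genes the mitochondrial importer Slc25a37 (3.19 ± 0.18), ceruloplasmin Cp (3.56 ± 0.61) and Slc11a1 (2.45 ± 0.15) were higher in M1 and the transferrin receptor Tfrc (-4.29 ± 0.29) in M2. In all, 7 and 5 of them were called, against 27.9% and 19.9% of all genes. In the lysosome list 9 were higher in M1 and 8 in M2 of 30 (median 0.06, -0.21 after quantile normalization), shares near those of all genes, and 5 and 14 after quantile normalization. The largest difference was that of Atp6v0d2, a proton pump subunit of fusing macrophages (-3.69 ± 0.23). It stood with Itgb3 (-5.14 ± 0.31) and Ocstamp (-3.34 ± 0.58) among the 8 of 18 osteoclast and fusion genes that were higher in M2, with 1 higher in M1.

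Other genes with the largest differences toward M1 were the surface protein gene Ly6a (8.36 ± 0.60), the Ifit family member Ifit1bl1 (9.30 ± 0.84), Apol9b (7.83 ± 0.54) and Ms4a4b (7.68 ± 0.37). In total, 224 called genes were above background on all 4 M1 arrays and on no M2 array, and 160 the reverse. Among genes with a full name, the largest such lower bounds toward M1 were those of Slc6a19, a neutral amino acid transporter of gut and kidney (at least 263-fold), and Ubd, a ubiquitin-like modifier (at least 125-fold), and then Fam3b, Mmp25, Lpar1, C1s2, Adgb, Hsh2d, Acpp and Il23r, at 18.7 to 38.5-fold or more. Slc6a19 was 3.18, 3.27, 1.72 and 2.83 in M1 and -6.46, -6.12, -6.13 and -6.03 in M2.

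**Figure D3:**
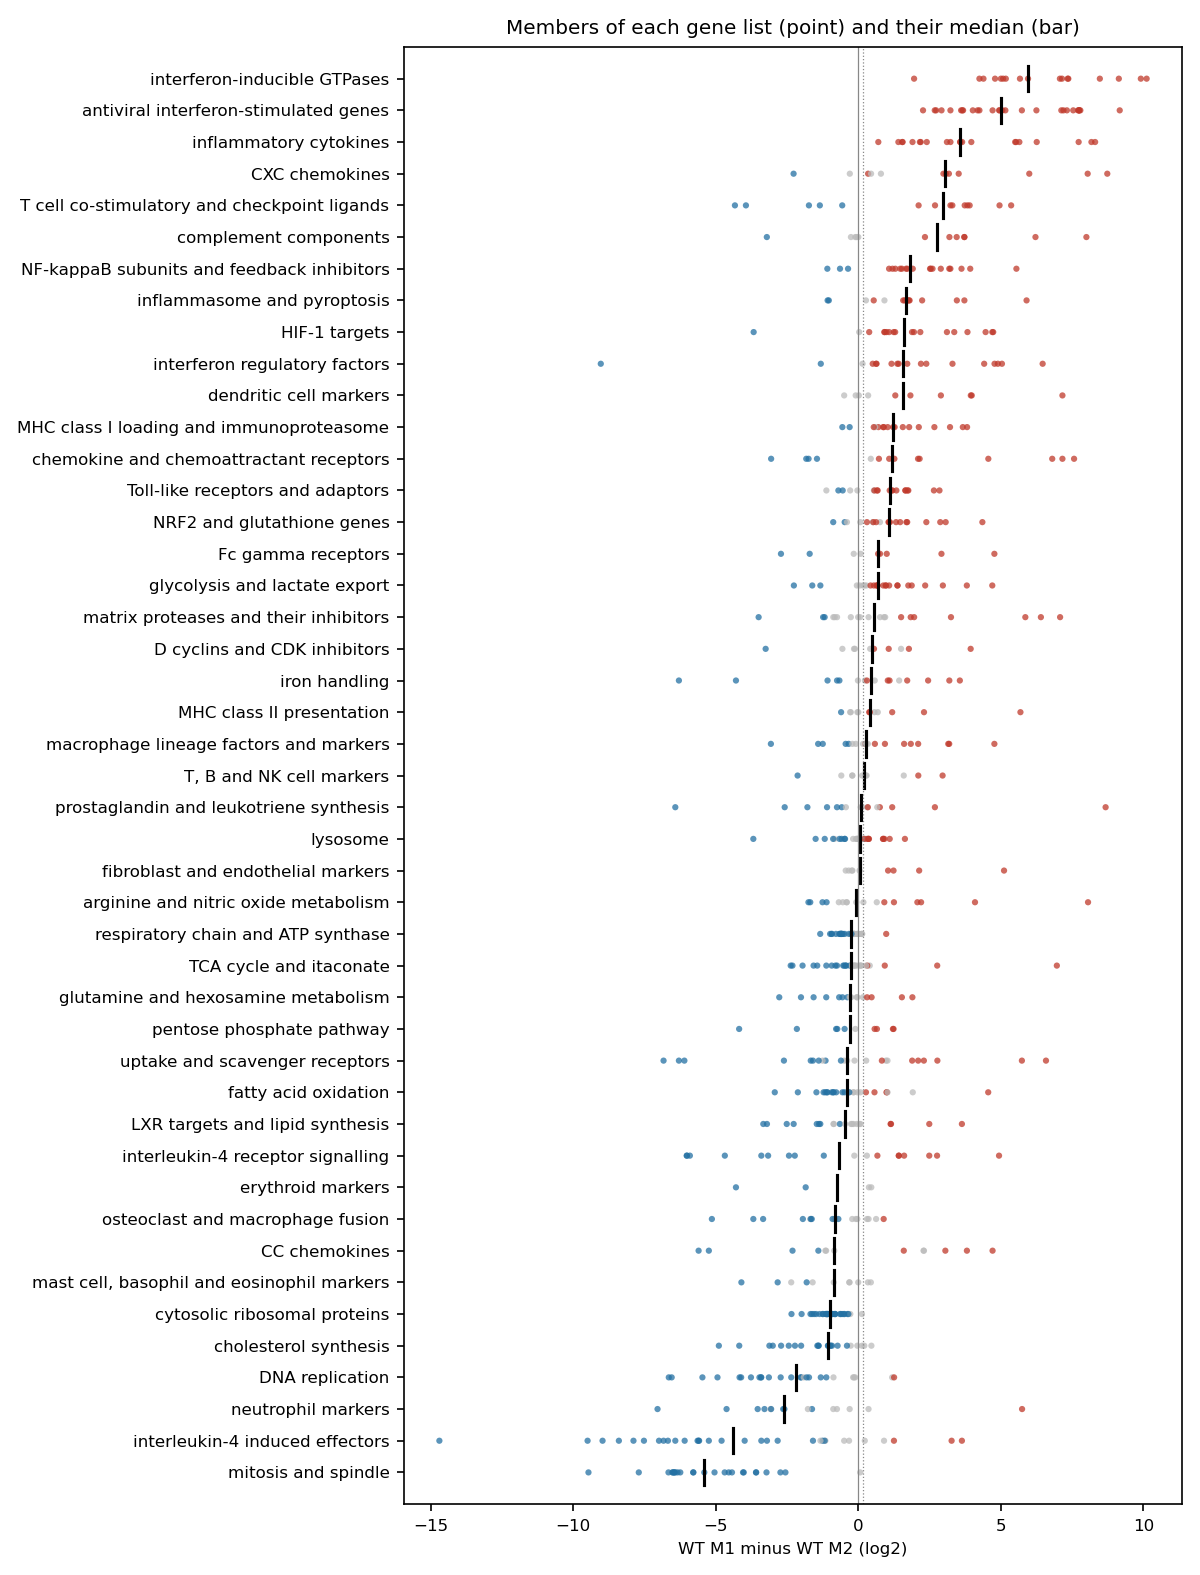
Each point is a measured member of 1 of 45 gene lists, at its WT M1 minus WT M2 difference (log2, x axis), coloured red where called higher in M1, blue where called higher in M2 and grey where not called. Black bars are list medians, and the dotted line is the median of all genes (0.16). The GTPase and antiviral lists lie highest (medians 5.95 and 5.00) and the mitosis list lowest (-5.41).

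Genes of glucose use were mostly higher in M1. Slc2a1, the transporter that is floxed in these mice, was 6.17, 5.92, 5.02 and 5.88 in M1, 4.37, 3.03, 3.30 and 2.91 in M2 and 3.76, 2.06, 2.67 and 2.72 in M0. The M1 arrays all lay above the M2 arrays (2.34 ± 0.35, 5.07-fold, adjusted p = 9.3e-06), whereas M2 and M0 overlapped. Of 25 glycolysis and lactate export genes, 17 were higher in M1 and 3 in M2, with a median of 0.68 (0.40 after quantile normalization) and 0.68 to 0.78 within the sets. The enzymes differed by unequal amounts, among them Gapdh (0.68 ± 0.13), Ldha (0.54 ± 0.11) and Pfkl, a phosphofructokinase (2.96 ± 0.22). Pfkfb3, which makes the activator of phosphofructokinase, differed by 4.70 ± 0.27 and the lactate exporter Slc16a3 by 3.80 ± 0.28. The related Pfkfb4 (-1.33 ± 0.16), the lactate importer Slc16a1 (-1.62 ± 0.17) and Ldhb (-2.26 ± 0.44) were higher in M2. HIF-1 is a hypoxia factor that also responds to LPS. In a list of its targets, which also holds the HIF genes Hif1a and Epas1, 16 of 18 genes were higher in M1 (median 1.59). Egln3 (4.73 ± 0.75), Adm (4.46 ± 0.43), Bnip3 (3.36 ± 0.20) and Hif1a itself (2.17 ± 0.23) were among them, and Epas1, the gene of HIF-2α, was higher in M2 (-3.67 ± 0.30). NRF2 and glutathione genes were higher in M1 in 14 of 20 cases, led by the cystine transporter Slc7a11 (4.35 ± 0.52).

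More genes of the TCA cycle, respiratory chain and fatty acid oxidation lists were higher in M2 than in M1. Over all genes, 19.9% were higher in M2 and 27.9% in M1. Of 28 genes of the TCA cycle list, 14 were higher in M2 and 4 in M1 (2 without the 4th set, median -0.27, -0.44 after quantile normalization). That list also holds genes of cytosolic enzymes, such as Idh1. Acod1, which diverts aconitate into the antimicrobial itaconate, was 8.06, 7.79, 7.90 and 8.14 in M1 and 1.4, 0.34, 0.07 and 2.23 in M2 (6.96 ± 0.70), while Idh1 (-2.37 ± 0.20), Idh2 (-2.31 ± 0.22) and Fh1 (-1.96 ± 0.13) were higher in M2. Of 36 respiratory chain genes, 18 were higher in M2 and 1 in M1, by small amounts (median -0.24, from -0.50 to -0.13 within the sets), such as Ndufs8 (-1.34 ± 0.13), and the exception was cytochrome c, Cycs (0.98 ± 0.25). Fatty acid oxidation genes were higher in M2 in 14 of 26 cases and in M1 in 5. Etfb (-2.12 ± 0.14) and Hadhb (-1.11 ± 0.13) were among the former, and Acsl1, which activates long-chain fatty acids (4.55 ± 0.17), and the gatekeeper Cpt1a (1.0 ± 0.11) among the latter. The glutamine transporter Slc1a5 was higher in M2 (-2.78 ± 0.31), with 7 of 17 genes of its list higher in M2 and 4 in M1 (2 after quantile normalization). In the pentose phosphate list, G6pdx (1.23 ± 0.13) and Pgd (1.21 ± 0.15), which make NADPH, were higher in M1 and the nucleotide-feeding Prps1 (-4.18 ± 0.33) in M2, with 4 and 5 of 10 called.

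Sterol synthesis was higher in M2 along most of the pathway, 18 of 23 genes against 0 in M1, with a median of -1.07 and -1.29 to -0.95 within the sets. Idi1, the isopentenyl diphosphate isomerase, was -0.71, -1.05, -0.66 and -0.97 in M1 and 3.56, 3.01, 3.52 and 3.24 in M2 (-4.18 ± 0.19), with M0 at 2.32 ± 0.44 (SD, n = 4). Fdps (-3.12 ± 0.21) and Sqle (-2.71 ± 0.28) were also higher in M2. In the list of LXR targets and lipid synthesis 8 of 21 were higher in M2 (13 after quantile normalization), such as Fasn (-3.21 ± 0.17) and Cyp27a1 (-3.34 ± 0.59). Higher in M1 were 4, such as Nr1h3, the gene of LXRα (2.49 ± 0.21), and Mylip (1.13 ± 0.27). The shares over all genes were 19.9% higher in M2 and 27.9% in M1.

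Of the 45 lists, that of mitosis had the lowest median. Of 25 mitosis and spindle genes, 24 were higher in M2 and 0 in M1 (median -5.41). Mki67 was -0.37, -0.15, 0.75 and -0.14 in M1, 5.21, 5.15, 5.24 and 4.68 in M2 and 5.59, 4.29, 5.40 and 5.42 in M0. Ccna2, cyclin A2, was -4.73, -4.72, -4.14 and -4.37 in M1 and 4.48, 4.21, 4.39 and 3.38 in M2 (-8.61 ± 0.39). Cdc20, which starts anaphase, was -2.73, -2.53, -2.49 and -2.44 and 4.32, 4.14, 4.43 and 3.56. Anln, needed for cytokinesis (-7.39 ± 0.39), and Ckap2, of the spindle (-6.57 ± 0.32), belonged to the 15 largest differences toward M2. Of the 10 largest lower bounds toward M2 among genes with all 4 M2 arrays and no probe on any M1 array above background, all but Retnla and the DNA glycosylase gene Neil3 are genes known from mitosis. They were Pimreg (at least 391-fold), Cenpf (195-fold), Aspm (164-fold), Pbk (152-fold), Kif4, Knl1, Ska1 and Depdc1b. In each of Mki67, Ccna2 and Cdc20 the M2 array of the 4th set was the lowest M2 array. The list medians were 3.40 in M0, -2.21 in M1 and 3.00 in M2. Replication genes followed, with 19 of 26 higher in M2 and 1 in M1 (median -2.19, within sets -3.31 to -1.41), such as Rrm2 (-6.65 ± 0.50), Tk1 (-6.55 ± 0.46) and Mcm5 (-4.11 ± 0.46). Among D cyclins and CDK inhibitors, Ccnd2 (3.94 ± 0.65) and the p21 gene Cdkn1a (1.77 ± 0.21) were higher in M1 and Cdkn2c (-3.25 ± 0.34) in M2.

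Nearly all ribosomal protein genes listed were higher in M2. Of 34, 32 were higher in M2 and 0 in M1, with a median of -1.0 (-1.18 after quantile normalization). The within-set medians were -1.18, -0.93, -1.31 and -0.53 in sets 1 to 4. Rpl10a was 4.85, 5.30 and 4.98 (no value for replicate 2) in M1 and 7.5, 7.31, 7.56 and 7.20 in M2, and Rps6 differed by -1.13 ± 0.12. Rplp1 (0.12 ± 0.11, and -0.85 after quantile normalization) was not called. Ribosomal protein genes have many processed copies in the genome, which probes may also read.

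**Figure D4:**
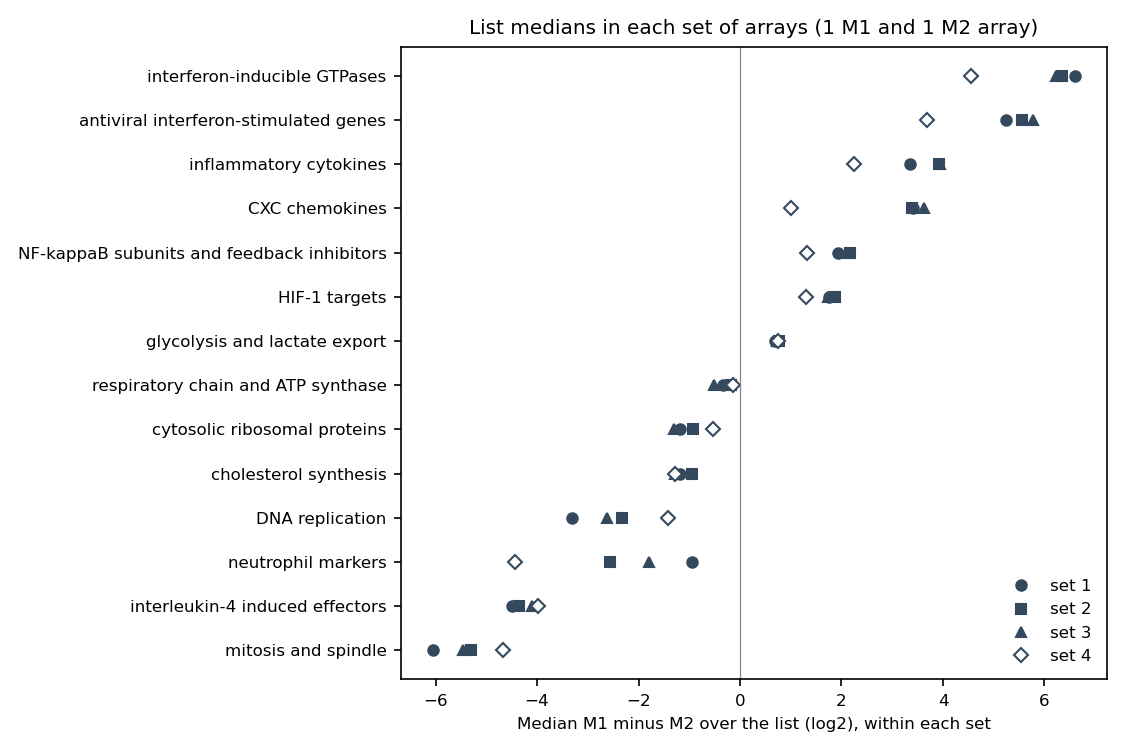
Median M1 minus M2 difference (log2, x axis) over the members of 14 gene lists (y axis), within each of the 4 sets, each of 1 M1 and 1 M2 array. Open diamonds are the 4th set. Its median is nearer to 0 than those of the other 3 sets for the GTPases (4.55 against 6.22 to 6.60), and farther from 0 for the neutrophil markers (-4.44 against -2.57 to -0.94).

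Markers of other marrow and immune cells were read in the same arrays. The shares over all genes were 27.9% higher in M1 and 19.9% in M2, and the T, B and NK cell list lay below both. Of 15 neutrophil markers, 8 were higher in M2 and 1 in M1 (median -2.60, within sets -4.44 to -0.94), and their summed level (log2 of the summed linear values) ranged from 4.51 to 6.29 over the M1 arrays and from 6.59 to 7.70 over the M2 arrays. S100a9 was 4.74, 4.42, 0.79 and 5.35 in M1 and 5.68, 6.69, 6.87 and 6.62 in M2, Mpo differed by -4.62 ± 1.38, and Retnlg was higher in M2 (at least 57.6-fold, with no M1 arrays above background). The M1 array of the 4th set was the lowest for S100a9. The defining Ly6g was higher in M1 (5.74 ± 0.70) and Elane was not called (0.36 ± 0.22). All 15 were above background on at least 1 of the 8 arrays. The dendritic cell list had 6 of 10 members higher in M1, among them Ly75 (at least 13.4-fold, with 2 M2 arrays above background) and Clec9a (at least 8.04-fold, with no M2 arrays above background), with summed levels of 5.29 to 6.04 in M1 and 5.32 to 5.77 in M2. For T, B and NK cells 2 of 10 were higher in M1 and 1 in M2 (2.14 to 2.66 in M1, 1.89 to 2.80 in M2), for mast cells, basophils and eosinophils 0 and 3 of 11 (-0.67 to 0.65 and 1.23 to 2.52), for fibroblasts and endothelium 4 (2 without the 4th set and after quantile normalization) and 0 of 9 (1.12 to 1.89 and 0.34 to 1.21) and for erythroid cells 0 and 2 of 4 (1.04 to 1.38 and 4.73 to 5.80). The erythroid sum was led by the transferrin receptor Tfrc, and the globin Hba-a1 was not called (0.45 ± 0.22). Of the mast cell and basophil genes, Ms4a2 was above background on 0 M1 and 1 M2 arrays, Mcpt8 on 0 and 1, and Kit on 0 and 2. The lowest fitted difference of the mast cell, basophil and eosinophil list was that of Prg2 (-4.10), toward M2. Of the B cell genes, Cd79a was above background on 1 and 1 arrays. In the T, B and NK list, Cd79b had the lowest fitted difference (-2.13) and Lck the highest (2.95). Of its 10 members, 5 were above background on all 8 arrays. Kdr had the highest fitted difference of the fibroblast and endothelial list (5.11). The part of such cells in the differences was not tested.

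The gap between M1 and M2 was compared with that in KO macrophages, which share no array with it. It differed in 7647 genes (29.7%), by the limma interaction term. Among genes called in this and in WT M1 against M2 and well above background on all 16 M1 and M2 arrays, Arg1 had the largest negative term (-4.61 ± 0.53, adjusted p = 1.2e-06). In WT its levels were 6.10 ± 0.18 in M1 and 7.35 ± 0.27 in M2, and in KO they were 1.05 ± 0.62 and 6.92 ± 0.12 (SD, n = 4). The high Arg1 of WT M1 cells was not seen in KO M1 cells, whose mean lay near that of WT M0 (0.87). Nos2 had no such term (0.29 ± 0.64, adjusted p = 0.80), and neither had Lyz2 (0.67 ± 0.52, adjusted p = 0.39). The Slc2a1 term was 0.43 ± 0.49 (adjusted p = 0.59), with 5.75 ± 0.50 in WT M1, 3.40 ± 0.67 in WT M2, 6.00 ± 0.14 in KO M1 and 3.23 ± 0.28 in KO M2. Its mean levels did not separate the arrays labelled KO from WT. The probe lies at chr4:118809864-118809923 (mm9), no source used here says whether that stretch is deleted, and it does not serve as a check of the KO labels. Lyz2, the gene from which the Cre is driven, averaged 8.0 ± 0.07 over the WT M1 arrays and 7.67 ± 0.13 over WT M2. It averaged 4.63 ± 0.50 over KO M1 arrays and 3.63 ± 0.83 over KO M2 (SD, n = 4), lower on average in the arrays labelled KO.

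Derl3, an endoplasmic reticulum protein of protein disposal, had the largest positive term of these genes (6.21 ± 0.38). Outside them, Retnla, below background on every WT M1 array, had a term of 6.52 ± 1.99 (adjusted p = 0.016). Derl3 was lower in M1 than in M2 in WT (-4.12 ± 0.45 against -0.13 ± 0.43) and higher in KO (1.80 ± 0.54 against -0.42 ± 0.16). Mgll, the monoacylglycerol lipase (5.29 ± 0.68), Dcbld2 (4.97 ± 0.62), Rragd, a Rag GTPase of lysosomal nutrient sensing (4.90 ± 0.33), and Hivep3 (4.72 ± 0.57) followed. In Mgll, Dcbld2 and Rragd too M1 was the lower state in WT and the higher in KO. The M1 minus M2 difference of Hivep3 was -1.08 ± 0.40 in WT and 3.64 in KO, but its WT M1 and M2 arrays overlapped. On the negative side, Tlr12 (-3.93 ± 1.1), the lipid-binding Fabp7 (-3.81 ± 0.59), Cd300lb (-3.58 ± 0.26) and Gpr18 (-3.48 ± 0.47) followed Arg1. In Gpr18 the WT gap of 5.29 ± 0.33 became 1.81 in KO. Over all genes called higher in WT M1, 2601 had an interaction term that was called, and in 1829 of these it was negative. Over those called higher in WT M2 the numbers were 2409 and 1505 positive. A chance high or low WT value enters both the call and the term, so these counts are a description. By group, the term was called for 33 of 34 ribosomal protein genes, 15 of 23 cholesterol synthesis genes, 12 of 32 IL-4 targets, 9 of 25 mitosis genes, 2 of 28 antiviral genes and 0 of 17 GTPases. Over all genes it was called for 29.7%, and the IL-4 targets and mitosis genes were not far from that share. For the ribosomal protein genes, the median M1 minus M2 difference was -1.0 in WT and 0.36 in KO. The 75th percentile used for scaling was 1504 to 1705 intensity units on the KO M1 arrays and 2103 to 2549 on the KO M2 arrays. The term was called for 7647 genes in the main setting, 7806 after quantile normalization and 7621 with median scaling. The part of the scaling in the list counts of this term was not tested.

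**Figure D5:**
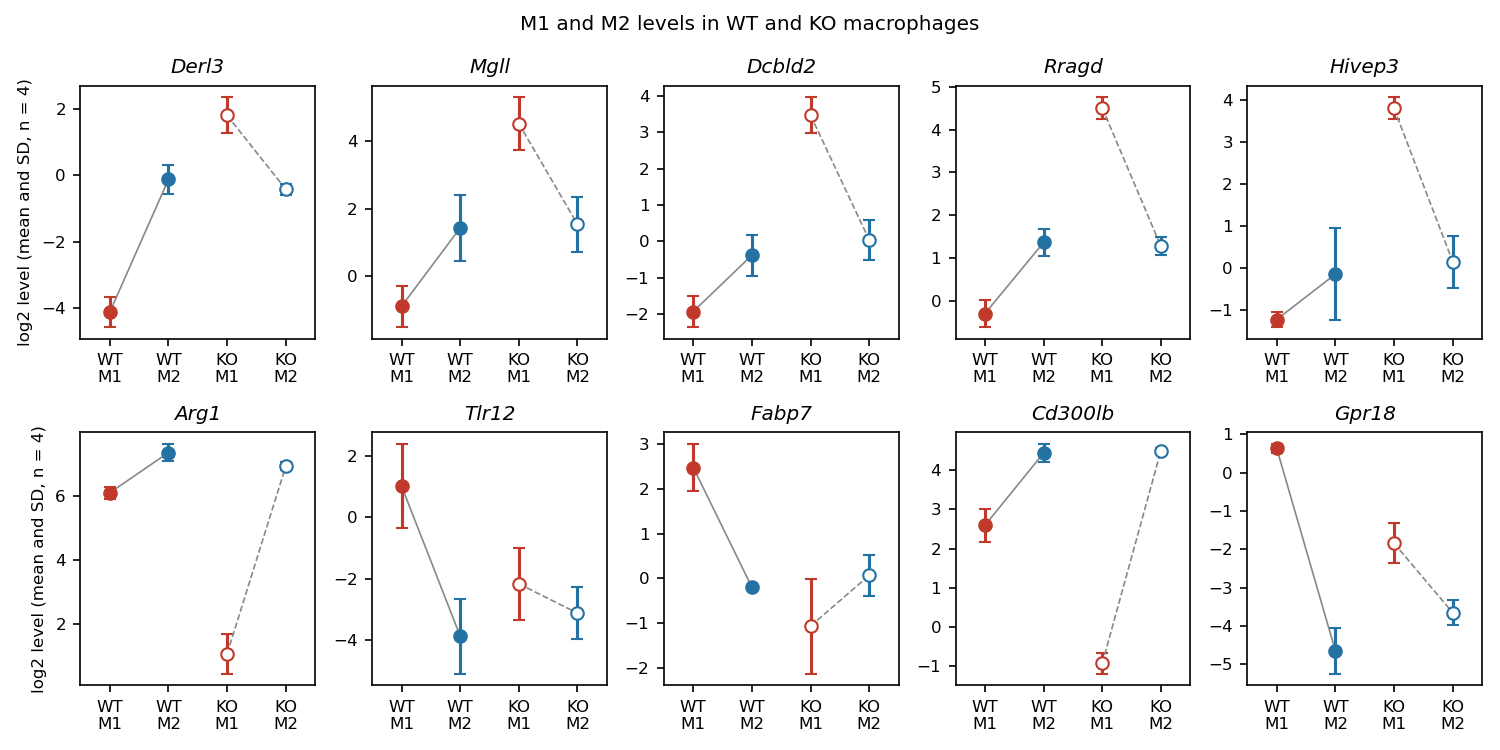
Mean log2 levels with SD (y axis, n = 4) of the 10 genes with the largest interaction terms, 5 in each direction, among those well above background on all 16 arrays, in M1 (red) and M2 (blue) of WT (filled, solid line) and KO (open, dashed line). Arg1 is at 6.10 in WT M1 and 1.05 in KO M1, while its M2 means are 7.35 and 6.92.

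Some genes gave opposite answers by probe. Each gene above is read by its brightest probe. Over the 39036 probes kept, 18579 were called (47.6%). Of 6260 genes with at least 2 probes above background on all 8 arrays, called or not, 210 (3.35%) had probes called in opposite directions. Slco2b1, an organic anion transporter, belonged by its brightest probe to the 15 largest differences toward M2, with -4.61, -3.99, -1.71 and -3.86 in M1 and 2.70, 3.73, 3.93 and 5.21 in M2, whereas a probe to a cDNA clone of the same gene gave 0.51 ± 0.15. Rps9 gave -0.57 ± 0.12 and -0.35 ± 0.12 at 2 probes to its main transcript and 3.68 ± 0.31 at a probe to another transcript. Gsdme, a pore-forming gasdermin, gave 1.73 ± 0.36 and -2.46 ± 0.36. For Qk, an RNA-binding splicing regulator, 1 probe gave 3.03 ± 0.27 and 3 gave -0.77 ± 0.11, -0.62 ± 0.19 and -0.53 ± 0.16. Prnp gave 2.32 ± 0.13 and -1.23 ± 0.17. Cd80, the partner of Cd86, was higher in M2 at its brightest probe (-1.73 ± 0.17) and higher in M1 at 3 others (1.62 ± 0.33, 0.59 ± 0.24 and 0.57 ± 0.21), so its direction between the states depends on the probe.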

How the data were processed

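RNA of each culture was labelled with Cy3 and hybridised to a one-colour Agilent mouse array (56605 gene probes). The deposited values are the scanner's processed intensity per spot, background-subtracted within the array and not normalized between arrays, with probe positions on mm9, per the file headers. Agilent Feature Extraction is version 10.7.3.1 per the file headers and 9.1 per the submitters' processing notes. The series' table of normalized values was not used, because its identifiers do not match the probes of the scanner files.

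From these, the mean was taken over the spots of each probe, without control spots and spots marked as outliers, each array was divided by the 75th percentile of its gene probes, and log2 was taken. A probe entered the fit (39036 did) if it was well above background on 4 or more of the 24 arrays, and each gene was read by its brightest probe. Probe names came from RefSeq by accession (33889 probes), by symbol (9462) or by synonym (489), and otherwise from the array file (12765). limma 3.58.1 in R 4.3.3 was fitted to 6 group means over all 24 arrays (lmFit, eBayes, 18 residual degrees of freedom), so that the groups share 1 estimate of spread, with Benjamini-Hochberg adjustment over all 25762 genes and a threshold of 0.05. The p-values measure the spread between the labelled replicates. The fit was run on simulated data with independent errors and no effect of set or slide, so that run cannot speak to such effects. Alternatives changed the scaling, background correction, filter, choice of probe, outlier spots, arrays in the fit and blocks.

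Replicate numbers of M1 and M2 did not pair the arrays, since deviations from the group means correlated at 0.21, 0.30, -0.21 and -0.16 for equal numbers. The 4 sets of arrays, taken from slide positions, correlated at 0.21, 0.30, 0.16 and 0.40. The members, the 45 gene lists (796 distinct genes measured, some in several lists) and the alternatives were chosen with earlier results of these data known. Genes were named as Nos2, Arg1, Slc2a1 and Lyz2, then the 15 largest differences in each direction among genes whose probe was well above background on all 8 arrays and whose groups did not overlap, the 10 largest lower bounds in each direction (no probe above background on any array of the lower state), list members, the 5 largest interaction terms in each direction among genes called in both tests and well above background on all 16 M1 and M2 arrays, and the 5 genes with the widest opposite probes. Clones and predicted loci were left out. Cd80 was added after its values were seen. Promoters came from RefSeq (GRCm38.p6).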

Additional observations from a re-analysis of the deposited data

Results flagged for a closer look

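Of 416 groups of 4 arrays tested among the named genes, 26 had 1 array set apart from the other 3 by Dixon's criterion, which chance gives in about 1 of 20 groups. In 23 of them that array belonged to the 4th set. M1 replicate 3 stood apart in Bnip3 (5.32), Ccl7 (4.95), Ch25h (2.75), Cyp27a1 (-1.82), Il10 (-1.19), Il1a (-1.33), Il1b (2.1), Irgm2 (6.19), Ldhb (1.87), Nfkb1 (4.57), Rps6 (6.10), Slc7a11 (-0.066) and Tgm2 (6.81), with its log2 level in brackets. M2 replicate 4 stood apart in Aspm (1.29), Cenpf (1.46), Cp (0.19), Cpt1a (4.67), Fcgr1 (3.36), Irf7 (5.54), Mki67 (4.68), Relb (3.28), Tap1 (3.07) and Tyk2 (2.48). The remaining ones were M2 replicate 1 in Ear10 (4.20), M1 replicate 1 in Socs1 (7.01) and M1 replicate 4 in Tyk2 (3.40). The part of the 4th set in these levels was not tested beyond the fits without it.

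The difference between M1 and M2 itself differed between KO and WT by the limma interaction term (log2, KO minus WT) for Derl3 (6.21), Mgll (5.29), Dcbld2 (4.97), Rragd (4.90), Hivep3 (4.72), Arg1 (-4.61), Tlr12 (-3.93), Fabp7 (-3.81), Cd300lb (-3.58) and Gpr18 (-3.48).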

How the results depend on the processing

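The direction of the main counts was kept under all alternatives, with each count within 1.5 times. Genes higher in M1 and in M2 numbered 6249 and 5917 after quantile normalization, 6374 and 5495 with median scaling, 6868 and 4940 with normexp background correction, 6881 and 4903 with no filter on dim probes, 6005 and 4533 with probes above background on all 8 arrays, 6762 and 4937 with the mean of a gene's probes, 7096 and 4667 with outlier spots kept, 6539 and 4609 in a fit of the 8 arrays, 8278 and 5990 with the set as a block, and 6868 and 5417 with the percentile taken over spots, an alternative chosen after seeing the data. Genes higher in M1 were 58.4% of those called in the main setting, 53.7% with median scaling and 51.4% after quantile normalization. List counts that moved by over 1.5 times and are not given above moved by 1 gene, from a count of 0, 1 or 2. Leaving out 1 array at a time gave 6195 to 7235 and 4663 to 5226. The count of 6195 higher in M1 came without M2 replicate 2. That array had 2005 outlier spots, against 90 to 731 on the other WT M1 and M2 arrays. The count of interaction terms ranged from 6915 to 9776. Of the 12326 called genes, 11249 kept call and sign after quantile normalization and 11038 with the mean of the probes. The replicate number as a block gave 7442 and 5351 genes and 8178 interaction terms, and those numbers do not pair the arrays. Single genes changed sign as follows. The mean of the probes gave 0.26 for Cd80, -0.25 for Csf1r, -1.32 for Gsdme, 0.012 for Nfkb1, 0.54 for Prnp, 0.17 for Qk, -0.37 for Rplp1 and 0.77 for Rps9. Quantile normalization gave -0.19 for Csf1r, -0.083 for Lyz2 and -0.85 for Rplp1. Normexp background correction gave -0.63 for Rplp1. The probes of Cd80, Gsdme, Prnp, Qk and Rps9 differ in direction, and for the others the cause was not tested. Of 237 named genes, 223 were called, and 212 of these kept call and sign under every alternative that measured them. In 7 the call was lost at an unchanged sign under at least 1 alternative, and the rest changed sign. A dim probe limits the fold that can be stated.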
